A study of Mus musculus with 6 samples.

Results

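Long-chain fatty acids reach the cells of the mammary fat pad in steps, and the 10 genes described here encode the proteins of those steps. They are the lipase system of the capillary wall (Lpl and Gpihbp1), the membrane receptor Cd36, the transport proteins Slc27a1, Slc27a2, Slc27a3 and Slc27a4, and the cytosolic binding proteins Fabp3, Fabp4 and Fabp5. The genes were chosen by name. Each was read by its probe set with the highest mean over all arrays, among probe sets annotated with 1 gene symbol, and all 10 were found among the 22180 genes so measured. Whole inguinal mammary glands were taken from 4-week-old C57BL/6J mice. In 3 stromal knockout mice (Dermo1Cre/Mt1-mmp(fl/fl)), Cre recombinase under control of Dermo1, a gene of mesenchymal cells now named Twist2, removed floxed Mt1-mmp, now named Mmp14, from stromal cells. Their wild-type littermates (Mt1-mmp(+/+)) gave the other 3 samples, and each sample was hybridised to 1 Affymetrix array. In the labels Cre goes with the floxed allele alone, and an effect of Cre itself cannot be told apart from the loss of Mmp14. All values are log2 signals, differences are knockout minus wild type with their standard error, and n = 3 arrays per group throughout.

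Lipoprotein lipase (Lpl) is made by adipocytes and muscle and frees fatty acids from the triglycerides of circulating lipoproteins. It acts in the capillary lumen, where the endothelial anchor Gpihbp1 carries and holds it. Cd36 then helps the fatty acids across the membranes of endothelium, adipocytes, muscle and macrophages. Proteins of the Slc27 family take part in uptake and are acyl-CoA synthetases, which trap a fatty acid by joining it to coenzyme A. Fatty acid binding proteins carry the insoluble acids within the cell. In the mammary gland, this route serves storage and oxidation in fat and, during lactation, milk fat.

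Mmp14 had log2 levels of 8.57, 8.55 and 8.75 in the knockout arrays, against 11.18, 10.55 and 10.90 in the wild-type arrays, a difference of -2.25 ± 0.17 (limma adjusted p = 0.000454). The sources used here do not say which part of the gene its probes read. Markers of the gland's cell types were present in wild type, and all 10 measured luminal epithelial markers fell in the knockout. Of 6 basal markers 5 fell, as did 4 of 8 fibroblast and 6 of 10 macrophage markers, and of 13 skeletal muscle markers 0 passed. The macrophage count was 2 without knockout 2 or wild type 1, 3 without knockout 1 or wild type 3, 5 without knockout 3 and 7 without wild type 2. The summed signal of the muscle markers was 8.33 to 8.39 in the knockout arrays and 8.03 to 10.5 in the wild-type arrays on the log2 scale, with wild type 1 the highest. In whole tissue, fewer cells of a type and less RNA per cell cannot be told apart.

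Of the 10 genes, Slc27a2, Gpihbp1, Fabp5 and Cd36 rose in the knockout gland and 0 fell. Slc27a2 rose 10.7-fold, Gpihbp1 2.14-fold, Fabp5 1.74-fold and Cd36 1.35-fold. The probe sets read were 17375701 (Slc27a2), 17312236 (Gpihbp1), 17548238 (Fabp5) and 17445715 (Cd36). The other 6 genes, which include the lipase itself and the abundant adipocyte binding protein Fabp4, did not pass the test. Among all 22180 genes, 5.05% rose and 7.2% fell at the same threshold, a limma p adjusted by Benjamini-Hochberg under 0.05. Of all called genes 41.3% were higher in the knockout, or 72.8% when arrays were centred on their medians, a step that moved every difference up by 0.19. The median difference of the 10 genes was 0.37, beside 0.03 for all genes. In 7 of the 10 genes the knockout arrays all lay above the wild-type arrays, and 17.2% of all genes had this pattern. The exact two-sided permutation p of each of these 7 was 0.1, and 3 arrays against 3 allow no smaller value. All 10 genes had both group means above 2.68, the 33rd percentile over genes. Differences with a group mean below that level are given as read, and their size is uncertain. At a fold of 2 or more, 2 of the 10 genes rose (Slc27a2 and Gpihbp1), beside 3.92% of all genes called at that fold, 0.857% higher and 3.07% lower.

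**Figure D1:**
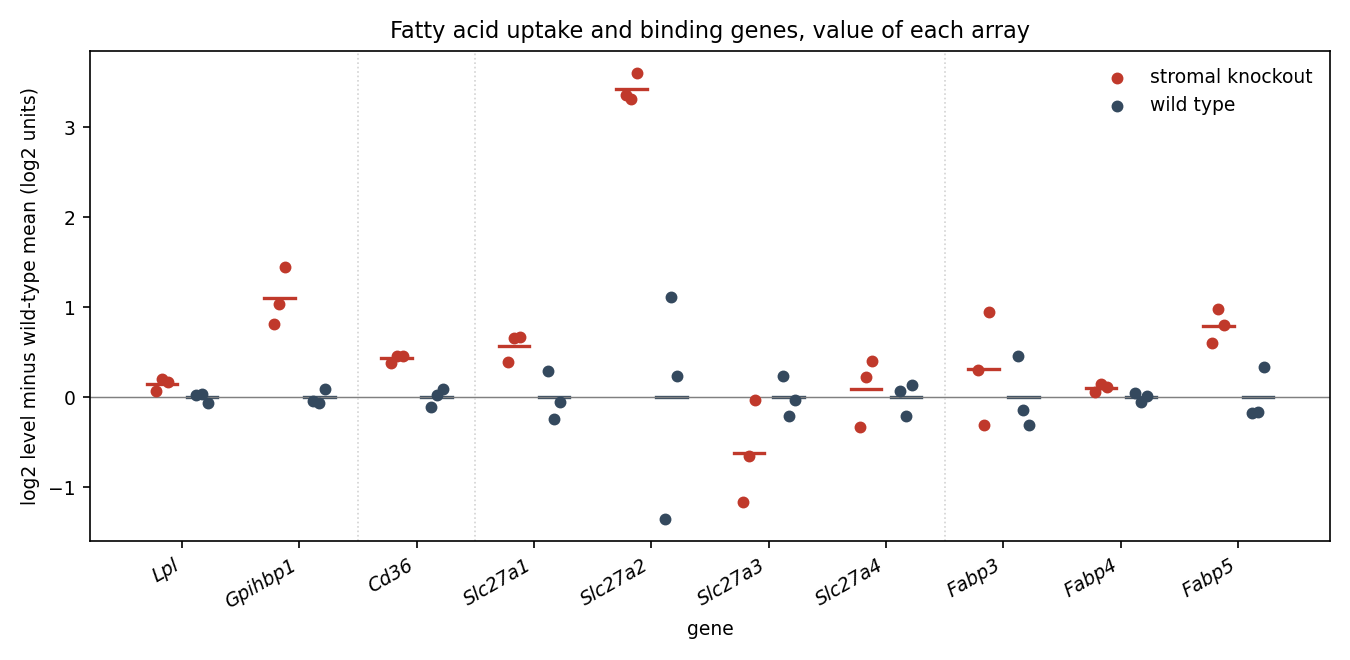
Log2 level of each gene on each array minus its wild-type mean, for 3 stromal knockout arrays (red) and 3 wild-type arrays (dark), with short lines at the group means. Slc27a2 lies farthest from wild type, at a mean of 3.43, and its wild-type arrays are also the most spread out (SD 1.25).

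In the lipase system the anchor rose and the enzyme did not pass the test. Gpihbp1 had levels of 7.94, 8.15 and 8.56 in the knockout arrays, against 7.08, 7.06 and 7.21 in the wild-type arrays. The groups did not overlap, and the wild-type arrays lay within a narrower range than the knockout arrays. The difference was 1.10 ± 0.17 (limma adjusted p = 0.00683, 95% interval 0.70 to 1.49). With 1 array left out it lay between 0.92 and 1.24, and it passed in each of these 6 fits (adjusted p 0.00895 to 0.0325).

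Lpl had levels of 12.29, 12.43 and 12.39 in the knockout arrays, against 12.25, 12.27 and 12.16 in the wild-type arrays. Its knockout arrays were all a little higher, by 0.15 ± 0.11 (limma adjusted p = 0.452, 95% interval -0.11 to 0.40). The brightest probe set of each array read 13.3 to 13.4, and how far the signal still responds at the level of Lpl was not tested. A second, dimmer probe set of Lpl differed by 0.48 ± 0.25 (limma adjusted p = 0.375 over all probe sets). The ratio of Lpl to Gpihbp1 within an array was lower in the knockout by 0.95 log2 units, with SDs of 0.28 in the knockout and 0.14 in wild type, and did not overlap between groups. Its exact permutation p was 0.1, or 0.125 after adjustment over the 10 within-family pairs compared.

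Because Gpihbp1 is an endothelial gene, it was set beside 13 endothelial markers. Of these, the tight junction gene Cldn5 (1.31 ± 0.23), the VEGF receptor Kdr (0.85 ± 0.12) and the receptor Tie1 (0.67 ± 0.17) rose, 0 fell, and the median difference was 0.47. Emcn, a sialomucin of capillaries and veins, differed by -0.32 ± 0.11 and was lower on every knockout array without passing (limma adjusted p = 0.113), and Tek differed by -0.09 ± 0.13 (adjusted p = 0.694). With an intensity trend in the variance 4 markers rose and 1 fell. Without knockout 1, 5 rose, and without any other 1 array 2 rose. These 5 are named after their values were seen, and Tie1 (limma adjusted p = 0.0437) held only when knockout 1 was the array left out (adjusted p up to 0.120 for the others). The summed signal of the list was 12.3 to 12.7 in the knockout arrays and 12.1 on each wild-type array on the log2 scale, and 0 of its 13 markers lay under 2.68 on all arrays. Knockout 3 was the highest array both for Gpihbp1 and for the mean of the list. Relative to the mean of the endothelial markers on the same array, Gpihbp1 was 0.58, 0.62 and 0.78 above the wild-type mean in the knockout arrays, against -0.10, 0.05 and 0.05 in the wild-type arrays. The mean difference of 0.66 on this scale was smaller than that of Gpihbp1 alone and had no overlap between groups (exact permutation p = 0.1).

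Cd36, the membrane receptor, had levels of 12.38, 12.46 and 12.46 in the knockout arrays, against 11.89, 12.02 and 12.09 in the wild-type arrays. The groups did not overlap and were separated by 0.43 ± 0.11 (limma adjusted p = 0.0450, 95% interval 0.17 to 0.69). The call lies at the threshold and was lost when any 1 of the 6 arrays was left out (adjusted p 0.0765 to 0.134), while the difference stayed between 0.38 and 0.48. Of 8 adipocyte markers, whose median difference was 0.34, 3 rose. They were the lipid droplet coat gene Plin1 (0.66 ± 0.12), the lipase Lipe (0.56 ± 0.11) and Pck1, an enzyme of glycerol synthesis (1.30 ± 0.24). Pnpla2 (0.40 ± 0.11), Adipoq (0.29 ± 0.11), Cidec (0.14 ± 0.11) and Retn (0.11 ± 0.11) did not pass. Lep was lower in the mean (-0.15 ± 0.20) and did not pass either (limma adjusted p = 0.698). All of these markers are named after their values were seen. Pck1 passed without any 1 array. Plin1 was lost without knockout 2 (limma adjusted p = 0.0542), and Lipe without knockout 1, knockout 2 or wild type 1 (adjusted p up to 0.0661). The summed signal of the adipocyte markers was 14.6 to 14.7 in the knockout arrays and 14.2 to 14.3 in the wild-type arrays on the log2 scale. Relative to their mean on the same array, Cd36 differed by 0.02 and the groups overlapped (exact permutation p = 0.9). Relative to the endothelial mean it differed by -0.003, also with overlap (exact permutation p = 1).

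The 4 transport proteins did not move together. Slc27a2, a very long-chain acyl-CoA synthetase best known from liver and kidney, had levels of 9.05, 9.01 and 9.29 in the knockout arrays, against 4.34, 6.80 and 5.93 in the wild-type arrays. The knockout arrays lay close to each other, whereas wild type 1 was far below wild type 2. The difference was 3.43 ± 0.53 (limma adjusted p = 0.00669, 95% interval 2.20 to 4.65). It was 2.75 without wild type 1 and 3.98 without wild type 2, and it passed without any 1 array (adjusted p 0.00558 to 0.0259). The second, dimmer probe set of Slc27a2 had levels of 2.78, 2.79 and 4.52 in the knockout arrays, against 2.09, 2.38 and 2.51 in the wild-type arrays, and its wild-type mean of 2.33 lies under 2.68. That probe set differed by 1.04 ± 0.47 as read, with knockout 3 the highest array, and did not pass (limma adjusted p = 0.313 over all probe sets). The mean of both probe sets gave a difference of 2.23 (limma adjusted p = 0.0103).

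Slc27a1, a transporter of muscle and fat, had levels of 10.69, 10.96 and 10.97 in the knockout arrays, against 10.59, 10.06 and 10.25 in the wild-type arrays. All knockout arrays were higher, by 0.57 ± 0.16, but the test was not passed (limma adjusted p = 0.0614, 95% interval 0.19 to 0.95). It was passed without wild type 1, at 0.72 (adjusted p = 0.0430), and with an intensity trend in the variance (adjusted p = 0.0145). Among the wild-type arrays, Slc27a1 was highest in wild type 1, where the skeletal muscle markers also peaked. How much of its level there came from muscle was not tested. Slc27a3, an acyl-CoA synthetase of the family, had levels of 3.70, 4.21 and 4.83 in the knockout arrays, against 5.10, 4.66 and 4.83 in the wild-type arrays. Knockout 3 lay among the wild-type arrays, and the difference was -0.62 ± 0.27 (limma adjusted p = 0.199, 95% interval -1.25 to 0.01). Without knockout 3 it was -0.91 and passed (adjusted p = 0.0387). Slc27a4, a transporter needed in skin, had levels of 5.54, 6.10 and 6.27 in the knockout arrays, against 5.94, 5.66 and 6.01 in the wild-type arrays. Its groups overlapped (0.10 ± 0.20, limma adjusted p = 0.811, 95% interval -0.38 to 0.57).

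Within an array, the ratio of Slc27a2 to each of its 3 relatives was higher in the knockout, by 2.85 log2 units over Slc27a1, 4.04 over Slc27a3 and 3.33 over Slc27a4. The ratio of Slc27a1 to Slc27a3 was higher by 1.19 and that of Slc27a1 to Slc27a4 by 0.48, and the ratio of Slc27a3 to Slc27a4 was lower by 0.72. In all 6 pairs the groups did not overlap, with an exact permutation p of 0.1, or 0.125 adjusted over 10 pairs. The smallest p of this design is 0.1, so none of these ratios could pass at 0.05. The pairs reuse the same genes and are not separate observations. How often other gene pairs show no overlap was not computed, and among all single genes 32.7% did not overlap in either direction.

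**Figure D2:**
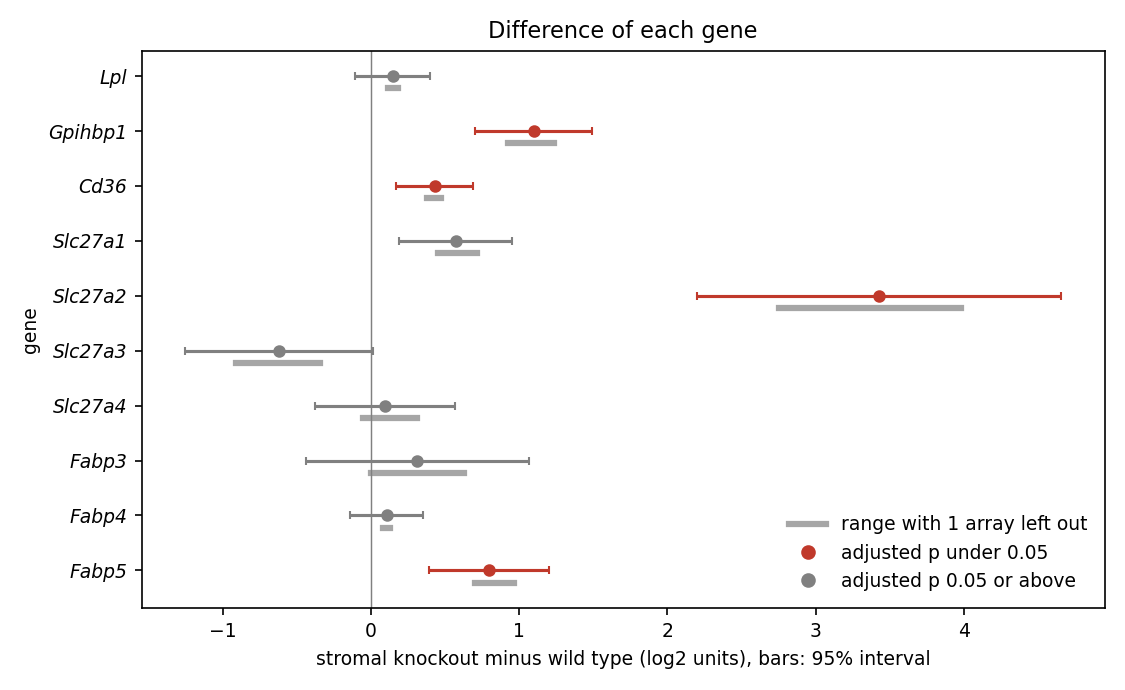
Difference of each gene, stromal knockout minus wild type in log2 units, with 95% intervals from limma (thin bars) and the range of the difference when 1 array is left out (thick bars below). The intervals and ranges of the 4 genes in red all lie above 0. Of these genes, Slc27a2 and Gpihbp1 passed without any 1 array, whereas Cd36 lost its call without each.

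Promoter windows are shown for the 2 genes that rose and have an entry in the RefSeq table (Slc27a2 and Cd36) and for Slc27a4, a relative of Slc27a2 that did not pass. Each window holds the 250 bases before the annotated transcript start in GRCm38.p6, written 5′ to 3′ on the gene's strand. Capitals mark the half-site AGGTCA, the core that nuclear receptors such as the PPAR and RXR proteins recognise, read here on its reverse strand as TGACCT.
Slc27a2, chr2:126552774-126553023, plus strand: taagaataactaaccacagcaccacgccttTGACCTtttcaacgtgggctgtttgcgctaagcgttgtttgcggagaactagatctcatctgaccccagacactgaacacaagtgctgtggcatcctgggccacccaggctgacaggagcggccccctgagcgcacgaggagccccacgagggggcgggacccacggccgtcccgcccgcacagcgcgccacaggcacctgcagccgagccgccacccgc
Cd36, chr5:17835897-17836146, minus strand: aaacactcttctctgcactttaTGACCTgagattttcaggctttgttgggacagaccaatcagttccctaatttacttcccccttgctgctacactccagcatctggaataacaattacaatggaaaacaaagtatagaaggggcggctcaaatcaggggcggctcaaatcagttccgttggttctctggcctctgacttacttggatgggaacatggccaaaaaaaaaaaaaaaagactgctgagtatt
Slc27a4, chr2:29802384-29802633, plus strand: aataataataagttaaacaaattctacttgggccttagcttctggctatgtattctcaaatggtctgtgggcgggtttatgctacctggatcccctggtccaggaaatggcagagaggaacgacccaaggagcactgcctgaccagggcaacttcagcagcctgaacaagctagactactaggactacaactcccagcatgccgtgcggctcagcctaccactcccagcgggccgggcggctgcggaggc
Both Slc27a2 and Cd36 hold 1 half-site, which spans 220 to 215 bases before the start in Slc27a2 and 228 to 223 bases before it in Cd36. Neither the Slc27a4 window nor those of Slc27a3, Fabp3 and the 3 annotated starts of Slc27a1 hold one on either strand. Half-sites on either strand occur in 4607 of the 32851 windows of this length. The full motif AGGTCANAGGTCA, 2 half-sites spaced by 1 base, is in 0 of the 8 windows of these genes and in 0.033% of all windows on either strand. Slc27a2 has a window rich in G and C (64.0%) with 19 CpG pairs, against 43.2% and 3 pairs in Cd36. No entry for Lpl, Gpihbp1, Fabp4 or Fabp5 was used. A match of letters is a description of the sequence and does not show binding.

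Among the 3 cytosolic binding proteins, Fabp5 rose. Fabp5, known from epidermis and also made by adipocytes, macrophages and endothelium, had levels of 9.32, 9.69 and 9.52 in the knockout arrays, against 8.55, 8.55 and 9.05 in the wild-type arrays. The groups did not overlap, with wild type 3 the nearest to the knockout arrays. The difference was 0.80 ± 0.17 (limma adjusted p = 0.0247, 95% interval 0.39 to 1.20). It lay between 0.71 and 0.96 with 1 array left out. It passed only when knockout 1 or wild type 3 was the array left out, and the adjusted p of the other 4 fits was 0.0594 to 0.0900. The other 3 probe sets of Fabp5 differed by 0.82, 0.87 and 0.88. Over all probe sets their limma adjusted p was 0.0608, 0.0373 and 0.232, beside 0.0765 for the probe set read here. Fabp5 has pseudogene copies in the genome, and the sources used here do not say whether the probes tell them apart.

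Fabp4, the main binding protein of adipocytes and also present in capillary endothelium, had levels of 12.79, 12.88 and 12.85 in the knockout arrays, against 12.78, 12.67 and 12.74 in the wild-type arrays. These values lie near the array maxima, and the difference was 0.11 ± 0.11 (limma adjusted p = 0.577, 95% interval -0.14 to 0.35), with a sign that flipped to -0.02 when quantile normalization was repeated. Fabp3, the heart-type protein that also serves brown fat, had levels of 5.92, 5.30 and 6.56 in the knockout arrays, against 6.07, 5.47 and 5.30 in the wild-type arrays. The groups overlapped and the difference was 0.31 ± 0.33 (limma adjusted p = 0.598, 95% interval -0.44 to 1.07). Like the skeletal muscle markers, Fabp3 read higher in wild type 1 than in the other wild-type arrays. Without wild type 1 its difference was 0.54 (limma adjusted p = 0.414), and a share from muscle was not tested. The second probe set of Fabp3 averaged 2.69 in the knockout arrays and 2.32, under 2.68, in the wild-type arrays, and did not pass (limma adjusted p = 0.270 over all probe sets). Within an array, the ratio of Fabp4 to Fabp5 was lower in the knockout by 0.69 without overlap (exact permutation p = 0.1, or 0.125 adjusted over 10 pairs), while both ratios with Fabp3 overlapped between groups (exact p of 0.5 and 0.7).

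Macrophages and epidermis also make Fabp5, so their markers were read beside it. Macrophage markers summed to 11.8 to 12.0 in the knockout arrays and 12.3 to 12.6 in the wild-type arrays on the log2 scale, and 0 of 10 rose. Fabp5 was higher in the knockout, and which cells carried its rise was not tested. Relative to the endothelial mean on the same array, Fabp5 differed by 0.36 with overlapping groups (exact permutation p = 0.2). Of 7 epidermal markers 0 passed in either direction, and 2 of them lay under 2.68 on all arrays. Relative to the mean of the 8 adipocyte markers, Fabp5 was 0.27, 0.48 and 0.39 above the wild-type mean in the knockout arrays, against -0.12, -0.21 and 0.33 in the wild-type arrays. The groups overlapped on that scale, at a mean difference of 0.38 (exact permutation p = 0.2). On the same scale Lpl (-0.27), Fabp4 (-0.31) and Slc27a3 (-1.03) lay below wild type without overlap. Gpihbp1 (0.68) and Slc27a2 (3.01) lay above it without overlap (exact permutation p = 0.1 for each of these genes). Slc27a1, Slc27a4 and Fabp3 overlapped, as did Cd36.

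Slc27a2 varied over the wild-type arrays in the same order as Cidea and Ucp1, genes of thermogenic adipocytes. The 3 genes with the profile nearest to it, measured as the root mean square distance between profiles centred on their own mean over 6 arrays, were Cidea (0.53), Ucp1 (0.67) and Pdk4 (0.71). Cidea, which coats lipid droplets in brown fat, had levels of 10.96, 10.79 and 10.98 in the knockout arrays, against 7.14, 9.46 and 8.95 in the wild-type arrays. Ucp1, the uncoupling protein of brown fat, had 9.23, 9.62 and 11.07 in the knockout arrays, against 4.88, 8.80 and 7.12 in the wild-type arrays (limma adjusted p = 0.0709). With 1 array left out, Ucp1 passed in 1 of 6 fits, without wild type 2 (adjusted p = 0.0277), and its adjusted p reached 0.173 in the others. For Slc27a2, Cidea and Ucp1 alike, wild type 1 was the lowest and wild type 2 the highest wild-type array. Because the nearest profiles were picked from all 22180 genes on these same arrays, a shared order follows in part from the choice. Cidea rose by 2.40 ± 0.52 (limma adjusted p = 0.0229), a call lost without any 1 knockout array (adjusted p up to 0.0646).

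Of 7 thermogenic markers, 4 rose and 0 fell, with a median difference of 2.01. The markers that rose were Cidea, the proton channel Otop1 and the cytochrome oxidase subunits Cox7a1 and Cox8b. Elovl3, a fatty acid elongase, differed by -0.67 ± 0.35 (limma adjusted p = 0.278) and Dio2, which activates thyroid hormone, by -0.65 ± 0.30 (adjusted p = 0.220), both with overlapping groups. Without knockout 3, 3 markers rose and 1 fell. These genes, other than Cidea and Ucp1, are named after their values were seen. Otop1 was lost without wild type 3 (limma adjusted p = 0.0510). The summed signal of the 7 markers was 11.9 to 12.5 in the knockout arrays and 8.94 to 10.8 in the wild-type arrays on the log2 scale. Relative to the mean of these markers on the same array, Slc27a2 was 2.14, 2.16 and 1.67 above the wild-type mean in the knockout arrays, against -0.51, 0.30 and 0.20 in the wild-type arrays. On this scale the difference was 1.99, smaller than for Slc27a2 alone, and the groups did not overlap (exact permutation p = 0.1). Its size depends on the list, since the mean includes Elovl3 and Dio2, which read lower in the knockout. Ucp1 by itself differed by 3.04 ± 0.91. Wild type 1, the lowest for Slc27a2, was also the array with the highest muscle signal.

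**Figure D3:**
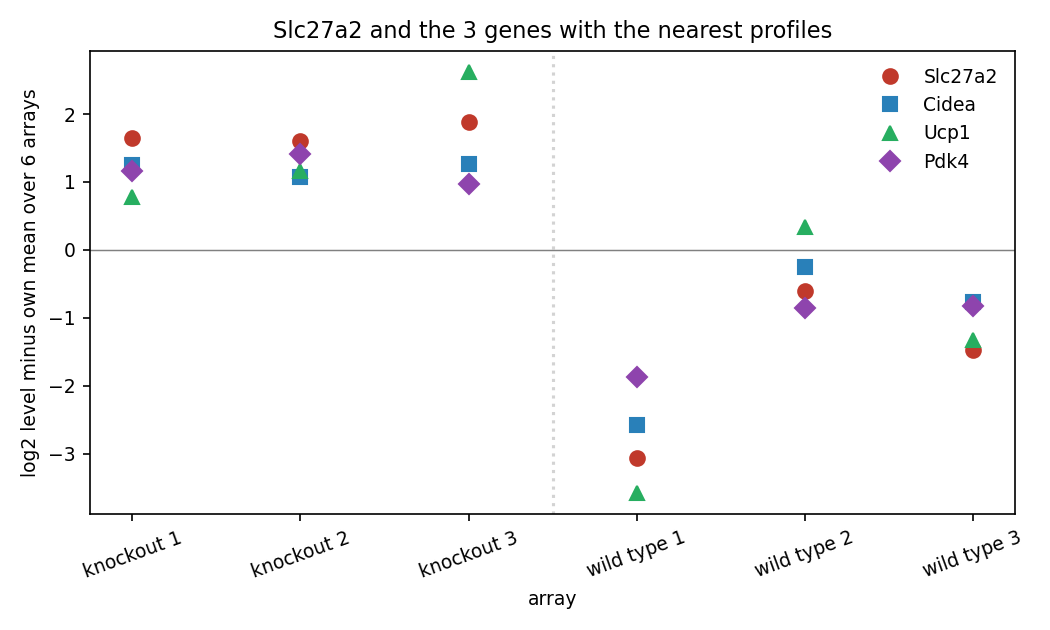
Log2 levels of Slc27a2, Cidea, Ucp1 and Pdk4 on each array, each minus its own mean over the 6 arrays. All 4 genes are above 0 on the 3 knockout arrays, and wild type 1 is the lowest array for each. Cidea, Ucp1 and Pdk4 were picked as the profiles nearest to Slc27a2 on these same arrays.

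Nearest to Gpihbp1 were the membrane glycoprotein gene Gpm6a (distance 0.098), the fatty acid hydroxylase Cyp2u1 (0.12) and Phgdh, of serine synthesis (0.12), which rose by 1.00 ± 0.17, 1.13 ± 0.13 and 1.06 ± 0.16. Nearest to Fabp5 were Endog, a mitochondrial nuclease (0.075), Cnnm2 (0.093) and Tppp (0.096). Endog rose by 0.75 ± 0.14, a call lost without knockout 2 or wild type 1 (limma adjusted p up to 0.0576). The profile of Cd36 was matched most closely by Ndufs4 (0.013), Rora (0.020) and Ndufa13 (0.022). Ndufs4 and Ndufa13 encode subunits of respiratory complex I, and Rora is a nuclear receptor. Ndufs4 differed by 0.42 ± 0.11 (limma adjusted p = 0.0484), a call lost without any 1 array (adjusted p 0.0770 to 0.141), and Rora and Ndufa13 did not pass. These genes were picked from all 22180 as the closest, and small distances are easier to reach for genes with a small range.

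**Figure D4:**
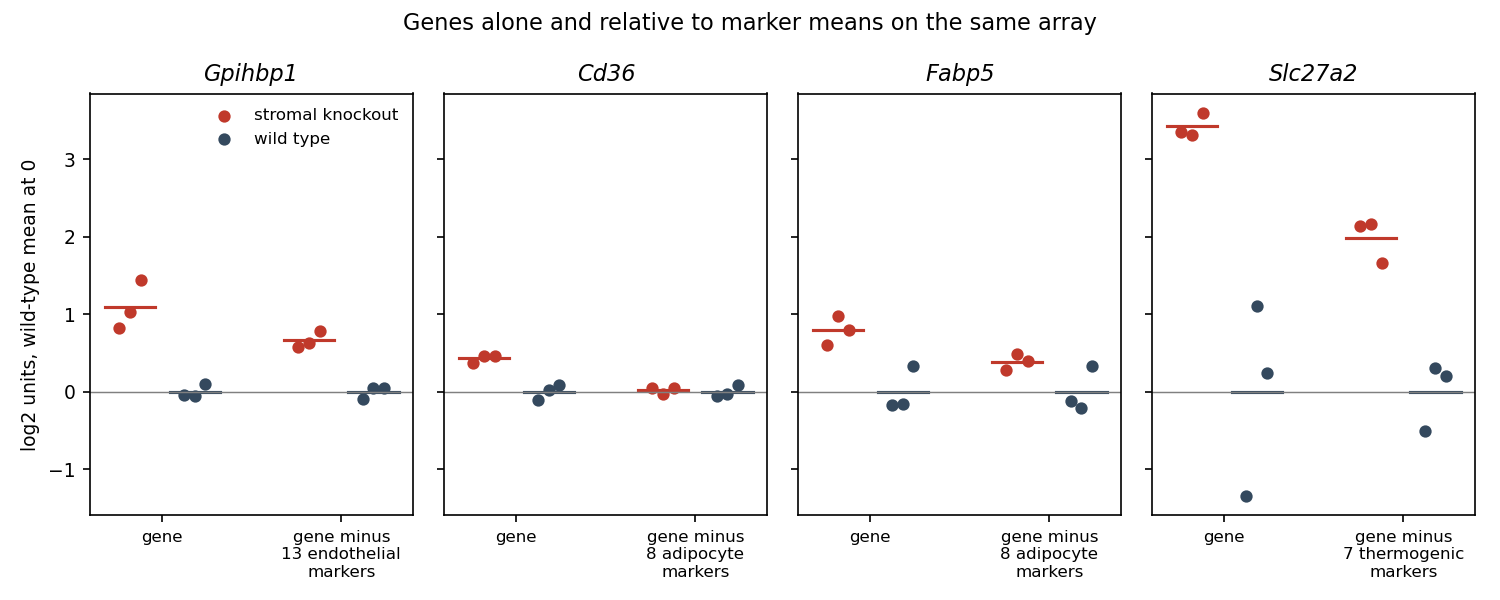
For Gpihbp1, Cd36, Fabp5 and Slc27a2, the gene alone (left in each panel) and relative to the mean of a marker list on the same array (right), in log2 units with the wild-type mean at 0, for 3 stromal knockout arrays (red) and 3 wild-type arrays (dark). Gpihbp1 and Slc27a2 stay apart from wild type on the relative scale, at means of 0.66 and 1.99, whereas Cd36 (0.02) and Fabp5 (0.38) overlap with it.

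Genes that act with the lipase moved in part. Of 19 measured partners, inhibitors and lipoprotein receptors, 4 rose and 0 fell, with a median difference of 0.09. Angptl4, a secreted inhibitor of lipoprotein lipase, had levels of 9.93, 10.44 and 9.61 in the knockout arrays, against 7.56, 8.43 and 8.58 in the wild-type arrays. It rose by 1.81 ± 0.30 (limma adjusted p = 0.00903), without overlap. Apoc2, the apolipoprotein that activates the lipase, rose by 0.84 ± 0.20 (limma adjusted p = 0.0357), and Apoc1, which hinders it, by 0.77 ± 0.14 (adjusted p = 0.0122). Sort1, a sorting receptor, rose by 0.44 ± 0.11 (limma adjusted p = 0.0443). The calls of Apoc2 and Sort1 were fragile, since Sort1 was lost without any 1 array (adjusted p up to 0.146) and Apoc2 held only when knockout 3 was the array left out (up to 0.109 for the others). With 1 array fewer, 2 list members rose in each case except without knockout 3, where 4 did. Lmf1, the chaperone that folds the lipase, differed by 0.36 ± 0.12 (limma adjusted p = 0.103).

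Of 9 membrane partners, Ffar4, a receptor for long-chain fatty acids (0.97 ± 0.21), and Zdhhc4, a palmitoyltransferase that modifies Cd36 (0.58 ± 0.14), rose. Mfsd2a, which carries lysophospholipids with long-chain fatty acids, and the kinase Fyn fell. Mfsd2a had levels of 4.53, 4.55 and 5.38 in the knockout arrays, against 9.02, 8.56 and 8.93 in the wild-type arrays, a difference of -4.02 ± 0.25 (limma adjusted p = 0.000212). This was the largest difference in the 5 lists around uptake and ran opposite to that of Slc27a2. Fyn, a Src-family kinase, fell by 0.77 ± 0.11. The 2 rises were not stable, with 0 or 1 rises when any 1 array was left out. Cav1, the main protein of caveolae, differed by 0.32 ± 0.11 (limma adjusted p = 0.0964).

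Among 12 acyl-CoA synthetases and acyl-CoA binding proteins, Scp2, a carrier of sterols and acyl-CoA, rose by 0.75 ± 0.12 and the binding protein Acbd4 by 0.82 ± 0.18. Acbd4 passed in 2 of the 6 fits with 1 array left out (limma adjusted p up to 0.0822). The synthetase Acsbg1 fell by 1.55 ± 0.22. The median difference of this list was 0.05. Acsl1 was not analysed here. Of 9 further members of the Slc27 and Fabp families 0 rose, and Slc27a6 fell by 1.57 ± 0.16 as read (limma adjusted p = 0.00126). Its knockout mean of 2.67 lies under 2.68, so the size of this fall is uncertain. With low genes left out, only 3 of the 9 were tested and 1 rose. The number of rises was 2 with arrays centred on their medians. It was 1 with either trend, array weights, repeated quantile normalization, an adjusted p under 0.1 or without knockout 3. It was 0 with averaged probe sets, a replicate block, a fold of 2 or more, or any other 1 array left out.

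Of 15 measured regulators of the uptake genes, 6 rose, 0 fell and 9 did not pass, with a median difference of 0.46. Ppara, a lipid-sensing nuclear receptor that drives genes of fatty acid uptake and oxidation, had levels of 6.58, 7.12 and 6.95 in the knockout arrays, against 5.18, 5.71 and 4.68 in the wild-type arrays, and rose by 1.69 ± 0.26 (limma adjusted p = 0.00682). The coactivators Ppargc1a and Ppargc1b rose by 1.50 ± 0.19 and 1.45 ± 0.18, and Klf15 by 1.01 ± 0.15. Each of these 4 passed without any 1 array, and 5 or 6 list members rose in each such fit. Pparg, the receptor of adipocyte differentiation and a known regulator of Cd36, Fabp4 and Lpl, differed by 0.46 ± 0.13 (limma adjusted p = 0.0557).

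**Figure D5:**
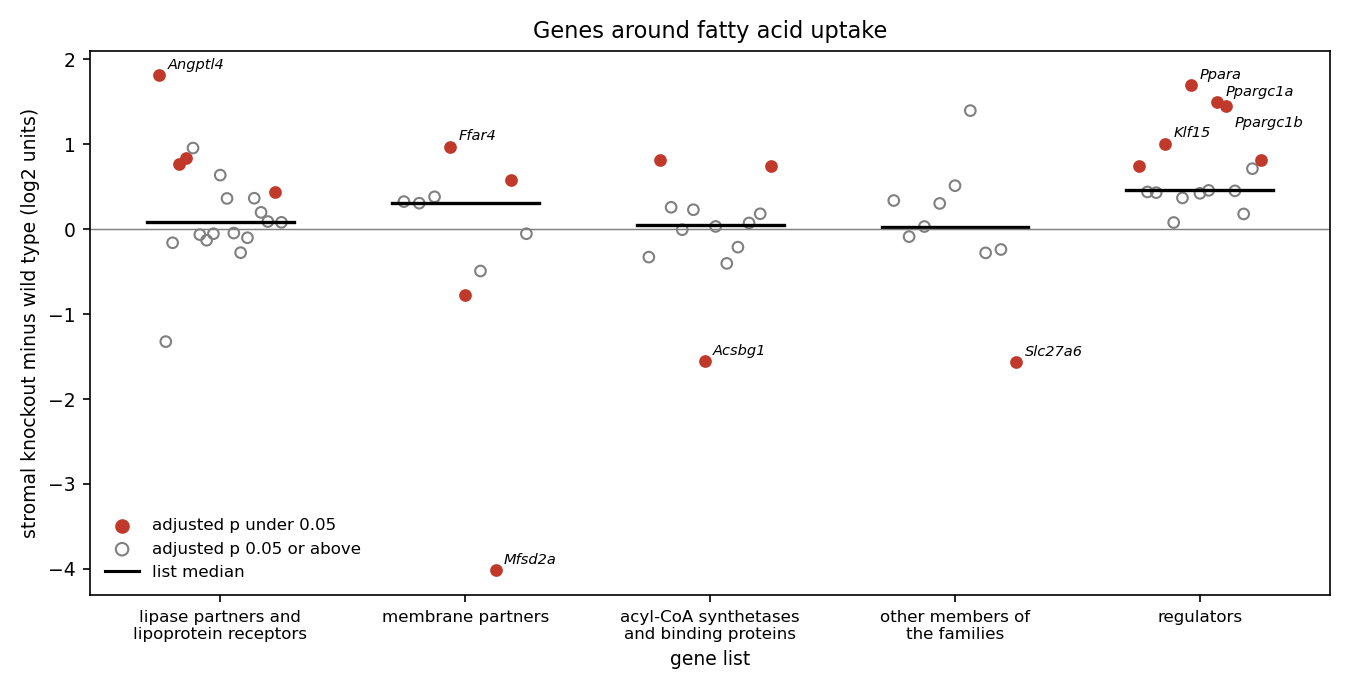
Difference of every measured gene in 5 lists around fatty acid uptake, stromal knockout minus wild type in log2 units, with filled points for a limma adjusted p under 0.05 and black lines at list medians. The regulators lie above 0 (median 0.46), and Mfsd2a at -4.02 is the lowest point.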

How the data were processed

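Total RNA, 400 ng per sample, was labelled for Affymetrix whole-transcript arrays, per the labels' protocols. The authors deposited log2 values for 41345 probe sets on 6 arrays, made with RMA, which corrects background, equalises quantiles between arrays and summarises probes, per the submitters' processing notes, which also name limma. The base of the logarithm was taken from the use of RMA and the range of the values, and the sources used here do not state the chip definition or filters. The platform annotation gives 1 symbol for 23521 probe sets, several for 1814 and none listed for 16010. Keeping the highest-mean probe set per symbol left 22180 genes. Groups were compared with limma 3.58.1 (lmFit, then eBayes; R 4.3.3), with Benjamini-Hochberg adjustment over all genes, a threshold of 0.05 and 95% intervals from the same fit. An exact permutation test, two-sided, was added for single values. The steps were tested on simulated data. The number of arrays limits the precision.

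The genes, the lists around them and the marker lists were chosen with earlier results of these data known. Named are the 10 genes, from each pathway list the 4 largest changes among genes that passed, Mmp14 and 7 further genes chosen by name (Acsl1 among them), and the 3 nearest profiles of each of the genes that rose, leaving out predicted genes. Promoter sequences are from RefSeq (GRCm38.p6), and those of 6 of the 10 genes were used here. The comparison with marker means was added after seeing the data. The alternatives left out genes in the lowest 33 percent or 1 array at a time, weighted arrays, and let the variance follow intensity, with and without robust estimation. Others repeated quantile normalization, centred arrays on their medians, averaged probe sets by symbol or tested all of them, blocked on replicate number, required 2-fold, or used an adjusted p under 0.1.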

Additional observations from a re-analysis of the deposited data

How the results depend on the processing

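Gpihbp1 and Slc27a2 kept their call and direction under each of the 17 other settings, at 0.92 to 1.28 and 2.23 to 3.98 log2 units. Lpl was not called under any of them. Over all genes, 2717 were called (1121 rose, 1596 fell). The count was 4333 with arrays centred on their medians (3155 rose, 1178 fell), a shift of 0.19 in the median over all genes. It was 870 at 2-fold or more, 4090 at an adjusted p under 0.1, and 1490 to 2304 with 1 array left out. With every probe set tested, 1647 of 41345 probe sets were called, which is a count of probe sets and not of genes. Of the 4 genes that rose, 2 were called at 2-fold or more. With every probe set tested, 2 were called by the probe set read here (Cd36 limma adjusted p = 0.110, Fabp5 0.0765), and another probe set of Fabp5 passed (0.0373). With 1 array left out, 2 to 3 of the 10 genes were called. Cd36 also lost its call with repeated quantile normalization (adjusted p = 0.0539). Slc27a1 passed with low genes left out (0.0422), either trend, array weights (0.0489) and centring (0.0133). Fabp4 reversed to -0.018 with repeated quantile normalization. With 1 array left out, Slc27a4 ranged from -0.054 to 0.31 and Fabp3 from -0.0015 to 0.63. Cd36 relative to the endothelial mean was -0.00326. The cause of these changes was not tested. With the replicate number as a block, 1923 genes and 3 of the 10 were called, with Cd36 lost (adjusted p = 0.102). Deviations of same-numbered arrays correlated at -0.05 to -0.03 across genes. Values this near 0 on 3 arrays per group cannot settle whether the numbers pair the samples. Lpl, Cd36 and Fabp4 are among the brighter genes, and how far their signal still responds was not tested.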

Other observations

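Among the further family members, Fabp9 and Fabp7 read higher on all 3 knockout arrays without passing. Fabp9, a testis-type binding protein, had levels of 4.14, 4.50 and 2.80 in the knockout arrays, against 2.28, 2.49 and 2.48 in the wild-type arrays, and its wild-type mean lies under 2.68 (limma adjusted p = 0.0557). Fabp7, the brain-type protein, had 4.19, 4.46 and 4.69 in the knockout arrays, against 4.02, 3.68 and 4.11 in the wild-type arrays (limma adjusted p = 0.101). Both are named after their values were seen.

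Angptl8, a lipase inhibitor of fed adipose tissue, had levels of 6.99, 7.10 and 7.69 in the knockout arrays, against 10.01, 8.26 and 7.48 in the wild-type arrays. It is named after its values were seen. Its groups overlapped and it did not pass (limma adjusted p = 0.187), and the wild-type arrays spread over more than 2 log2 units. Angptl4, which rose, was lowest in wild type 1, the array where Angptl8 was highest.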
